A study of Homo sapiens with 9 samples.

Results

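The 46 genes described here encode the TGF-β and BMP signalling chain, the transcription factors of epithelial-mesenchymal transition (EMT), growth factor receptor tyrosine kinases with their IRS adaptors, the RAS and PI3K to MTOR relays, the Hippo and YAP pathway, and the transcription factor SP1. They form a list of pathway genes taken by symbol, chosen with earlier results on these peaks in view, and a peak was assigned to a gene when its midpoint lay in the gene body on the same strand of hg19. The miR-342-3p list put 29 of its 3450 peaks (0.841%) in 16 of the 46 genes, and the miR-342-5p list put 91 of its 5010 peaks (1.82%) in 24 of them. A peak of at least 1 mimic was present in 28 genes, and 18 genes had none. The like share over all protein-coding genes is not given here, and shares for each mimic follow below.

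Argonaute (AGO) HITS-CLIP was performed in MDA-MB-231HM cells, a highly metastatic derivative of a human triple-negative breast cancer line, which the labels give as genotype WT. The cells were transfected with a miR-342-3p mimic, a miR-342-5p mimic or a negative control mimic, each at 20 nM for 48 h and in 3 replicates, giving 9 libraries. UV light fixed AGO to the RNA it held, the complexes were pulled down with an antibody against Ago2, and the protected fragments were sequenced. The authors deposited 1 list of peaks for each miR-342 mimic, called over the negative control mimic with the replicates merged. Each peak has a position, a strand, a summit and a score, which the study describes as reads above background, and the lowest score in the lists is 5. The negative control libraries behind both lists are the same 3, so the lists are not independent. With merged replicates no SD and no depth per library could be computed, and the confidence intervals (CI, 95% Wilson) cover counting error only. Peaks of a single gene are not independent of each other. The lists hold no expression values, so a gene without a peak may be unexpressed or bound below a score of 5, and the markers of the cell line could not be checked. All cells are of 1 line, with the miRNA supplied by transfection.

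A mature miRNA guides AGO to RNAs that pair with its seed, the bases from position 2 to position 8, and targets bound in the 3′UTR are generally repressed more than those bound in the coding part. TGF-β binds a pair of type II and type I receptor kinases, which phosphorylate SMAD2 and SMAD3, and these enter the nucleus with SMAD4. In carcinoma cells this chain induces the SNAI, ZEB and TWIST factors of EMT, and it acts beside receptor tyrosine kinases, PI3K and YAP signalling in invasion and growth.

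The mature sequences of the mimicked strands (RefSeq, from the table for GRCh38.p14) are shown first, with the seed in capitals, because the strands share no seed and every site below pairs with 1 of them.
miR-342-3p: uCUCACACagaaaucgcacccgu
miR-342-5p: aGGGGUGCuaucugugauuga
The sites searched within 50 nt of each summit, on the strand of the peak, were GUGUGAGA (8mer), GUGUGAG (7mer-m8) and UGUGAGA (7mer-A1) for miR-342-3p. Those of miR-342-5p were GCACCCCA (8mer), GCACCCC (7mer-m8) and CACCCCA (7mer-A1). Matches of the shared 6 nt alone, UGUGAG or CACCCC, are called 6mers.

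The following reference stretches (GRCh37) hold the 8mers found under miR-342-3p peaks in exons of the listed genes, the highest-scoring peak with a 7mer, and the 8mer downstream of the highest peak of all, in TGFBR2. Capitals mark the site.
IGF1R 3′UTR, 8mer (chr15:99503220-99503249, plus strand): gggguguguguGUGUGAGAgugaugggaca
IGF1R coding, 8mer (chr15:99251258-99251287, plus strand): gagaagccgauGUGUGAGAagaccaccauc
SMAD2 coding, 8mer (chr18:45422990-45423019, minus strand): gaagaaaagugGUGUGAGAaagcagugaaa
TGFBR2 coding, 7mer-A1 (chr3:30686298-30686326, plus strand): aaauuuugugaUGUGAGAuuuuccaccug
TGFBR2 coding, next exon, 8mer (chr3:30732915-30732944, plus strand): auccagaugguGUGUGAGAcguugacugag

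The corresponding stretches under miR-342-5p peaks in exons are given with the 8mer nearest to each summit, all coding, and the highest-scoring 7mer lay in the 3′UTR of AMOTL2.
SKIL coding, 8mer (chr3:170079003-170079032, plus strand): guggaauguuuGCACCCCAgacguuuguga
SMAD4 coding, 8mer (chr18:48581272-48581301, plus strand): agagacauacaGCACCCCAgcucuguuagc
IRS1 coding, 8mer (chr2:227661956-227661985, minus strand): uggccaccgcuGCACCCCAggaacaggcuu
IRS2 coding, 8mer (chr13:110437441-110437470, minus strand): ucgucggccacGCACCCCAucagcgucccc
AMOTL1 coding, 8mer (chr11:94532674-94532703, plus strand): acugcgguaugGCACCCCAaccgagaacau
AMOTL2 3′UTR, 7mer-m8 (chr3:134076338-134076366, minus strand): ugagagcaccgGCACCCCcagaagacucu

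The share of listed genes with a peak is given beside that of protein-coding genes as a description, because the genes were chosen with earlier results of these data known. A miR-342-3p peak was present in 16 of 46 genes (34.8%, CI 22.7–49.2%) against 11.8% of the 20163 protein-coding genes of the annotation. A miR-342-5p peak was present in 24 of 46 (52.2%, CI 38.1–65.9%), against 11.8% of protein-coding genes in that list too. The listed genes have long transcripts, with a median mRNA of 6250 nt and a median 3′UTR of 3562 nt, where the medians over protein-coding genes are 2889 nt and 1023 nt. The part of transcript length and of expression in these shares was not tested. The receptor kinases and adaptors carried the most peaks of both mimics, 15 for miR-342-3p in 6 of 9 genes and 49 for miR-342-5p in 8 of 9. In the TGF-β and BMP group, 4 of 14 genes held 8 miR-342-3p peaks and 7 of 14 held 21 miR-342-5p peaks. The RAS and PI3K group had peaks in 4 and 2 of 10 genes, the Hippo and YAP group in 1 and 5 of 7, and the EMT factors in 0 and 1 of 5.

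**Figure D1:**
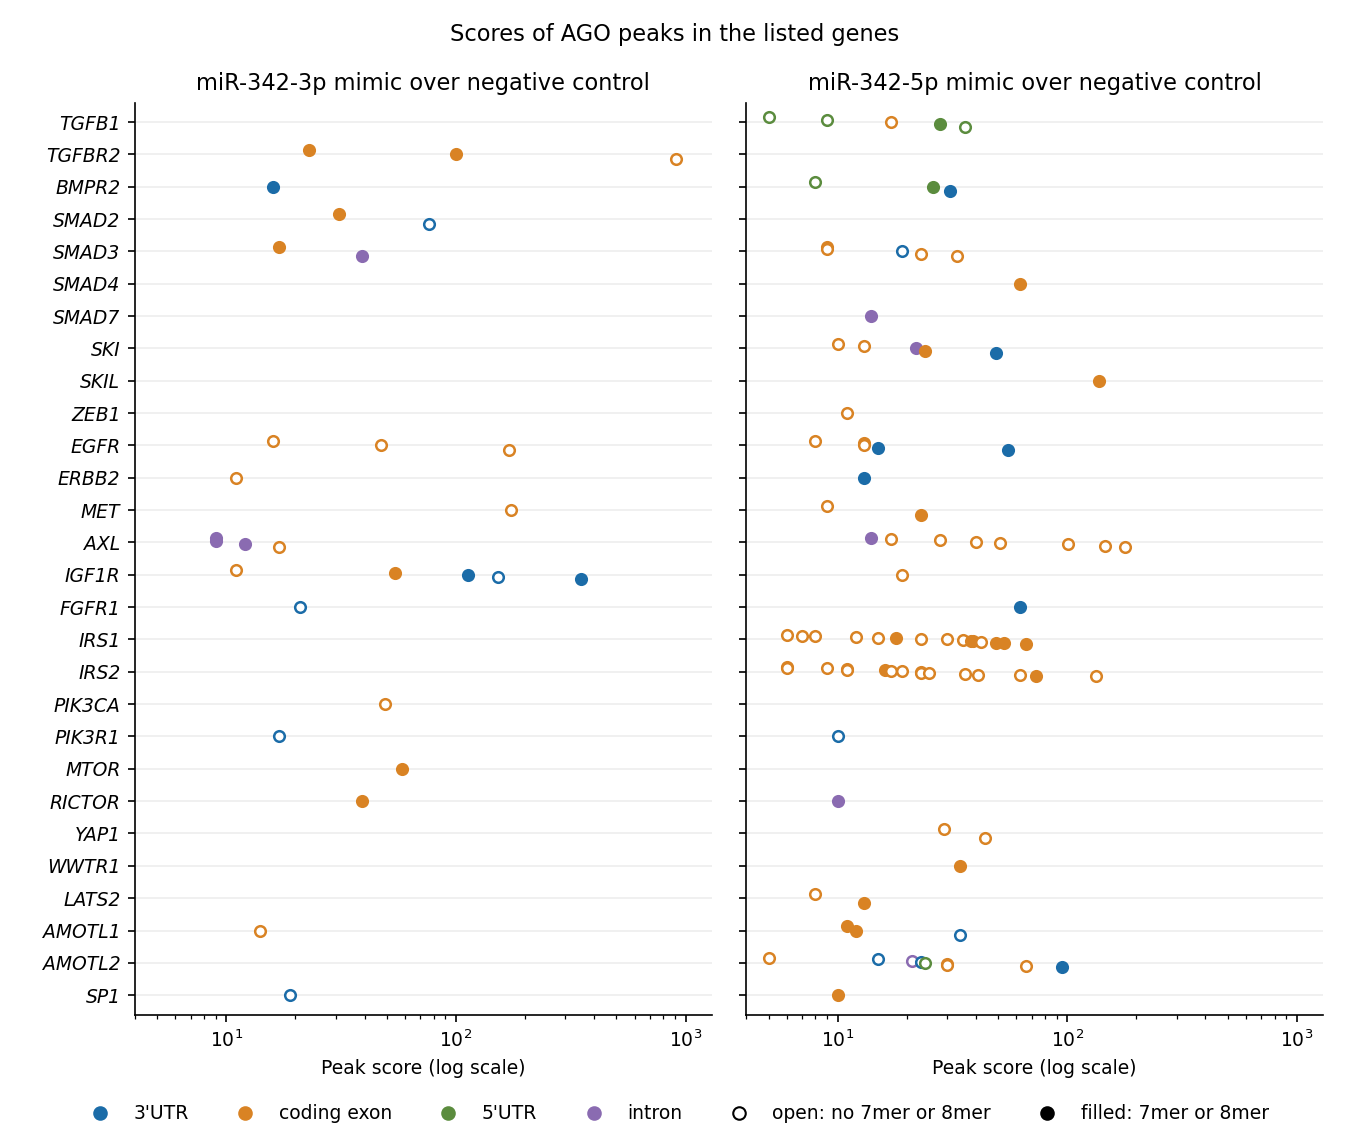
Scores of all AGO peaks in the 28 listed genes with a peak, on a log axis, for the miR-342-3p mimic (left) and the miR-342-5p mimic (right); each point is 1 peak (slightly offset vertically within a gene for legibility), its colour gives the location and a filled point has a 7mer or 8mer of its own mimic within 50 nt of the summit. The highest miR-342-3p scores belong to TGFBR2 (913) and IGF1R (350), the highest miR-342-5p scores to AXL (178 and 146) and SKIL (138), and the longest rows of points are the miR-342-5p peaks of IRS1 and IRS2.

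Of the TGF-β ligands, TGFB1 had peaks in the miR-342-5p list alone, and TGFB2 had no peak. TGFB1 held 5 miR-342-5p peaks with scores of 5 to 36. Of these, 4 formed an unbroken run of 469 nt in the 5′UTR (chr19:41859021-41859489), in which neighbouring peaks lay at most 10 nt apart, and the fifth, with a score of 17, was coding. The 5′UTR peak with a score of 28 held a 7mer-m8, and the other 4 peaks held no 7mer or 8mer.

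TGFBR2, the type II receptor that binds TGF-β and starts the signal, carried the highest score of any listed gene. Its coding peak at chr3:30729910-30730003 scored 913 with the miR-342-3p mimic. The peak ends exactly at the edge of an exon, with the summit on its last base, and the genomic window around the summit held no seed match. Along the spliced transcript the sequence continues at the next exon, where the 8mer shown above (chr3:30732926-30732933) lay 15 nt from the summit. This reading along the spliced transcript was made after the score was seen. A pair of further miR-342-3p peaks in an earlier exon, at chr3:30686251-30686343 with a score of 100 and 1 nt further on with a score of 23, each held a 7mer-A1. TGFBR2 had no miR-342-5p peak. TGFBR1, the type I receptor of TGF-β, had no peak of either mimic.

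BMPR2, the type II receptor for BMP ligands, was bound by both mimics in its 3′UTR and at seed sites. The miR-342-3p peak (chr2:203432182-203432280) scored 16 and held a 7mer-m8 at 6 nt from the summit, near the distal end of a 3′UTR of 7803 nt. The miR-342-5p peak (chr2:203424744-203424847) scored 31, and its summit fell on a 7mer-m8 at position 103 of the same 3′UTR. A pair of miR-342-5p peaks with scores of 8 and 26 lay in the 5′UTR, the latter with a 7mer-m8. BMPR1A, a type I BMP receptor, had no peak.

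The SMADs differed in the mimic that gave peaks. SMAD2, a receptor-activated SMAD, had miR-342-3p peaks alone: a 3′UTR peak with a score of 76 (chr18:45367789-45367845) without a seed match, and a coding peak with a score of 31 whose 8mer is printed above. SMAD3, its partner in the TGF-β response, had a miR-342-3p peak with an 8mer in an intron (score 39) and a coding peak with a 7mer-m8 (score 17). SMAD3 also had 5 miR-342-5p peaks, 4 coding and 1 in the 3′UTR, with scores of 9 to 33 and no 7mer or 8mer at any of them. SMAD4, the common partner of these SMADs, had a single miR-342-5p peak with a score of 62 (chr18:48581240-48581363, coding), 3 nt from its 8mer. SMAD7, the inhibitory SMAD, had a single intronic miR-342-5p peak with a score of 14 and a 7mer-m8.

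SKIL and SKI encode co-repressors that bind SMADs and dampen TGF-β transcription, and both were bound in the miR-342-5p list. The SKIL coding peak (chr3:170078891-170079077) scored 138, and its summit lay on an 8mer. A further 8mer (chr3:170078948-170078955) lay under the same peak, more than 50 nt from the summit. SKI held 5 miR-342-5p peaks, of which the highest was a 3′UTR peak with a score of 49 (chr1:2238892-2239023) and a 7mer-m8 at 5 nt. The others scored 10 to 24 and comprised an intronic peak whose summit lay on an 8mer, a coding peak with a 7mer-A1 and a pair of coding peaks without a site. ID1 and ID4, inhibitors of DNA-binding that BMP signals induce, had no peak, although the ID4 3′UTR holds a miR-342-3p 8mer (chr6:19839985-19839992).

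Of the EMT transcription factors, which repress epithelial genes such as that for E-cadherin, only ZEB1 had a peak. It was a coding miR-342-5p peak with a score of 11 and no seed match. SNAI1, SNAI2, ZEB2 and TWIST1 had no peak in either list. Whether these genes were expressed is not shown by the lists.

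Among the receptor tyrosine kinases, IGF1R, the receptor for insulin-like growth factors, was the gene with the most exonic miR-342-3p peaks. Its highest peak (chr15:99503201-99503254) scored 350 in the 3′UTR, and the neighbouring peak 1 nt upstream (chr15:99503176-99503199) scored 113. Both windows held the same 8mer, at 9 and 32 nt from the summits, and the longest run of alternating G and U in each was 14 nt. A further 3′UTR peak (chr15:99502739-99502866) scored 153 without a seed match. The coding peak at chr15:99251221-99251324 scored 54 and lay 3 nt from its 8mer, and another coding peak scored 11 without a site. The only miR-342-5p peak of IGF1R was coding, with a score of 19 and no site.

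EGFR, the receptor for EGF, and MET, the receptor for HGF, had high coding miR-342-3p peaks without any seed match. The EGFR peak at chr7:55259412-55259477 scored 171, and the other coding peaks scored 47 and 16. The MET peak at chr7:116339140-116339210 scored 174 and its summit lay 56 nt from the start codon. None of these 4 windows held as much as a 6mer. With the miR-342-5p mimic, EGFR was bound at 7mer-A1 sites in its 3′UTR, with scores of 55 (chr7:55276121-55276312) and 15 (chr7:55274264-55274362), and by 3 coding peaks without a site that scored 8, 13 and 13. MET held 2 coding miR-342-5p peaks, with scores of 23 (chr7:116395409-116395453) and 9 (chr7:116381054-116381079), on either side of a splice junction. They are 14329 nt apart on the genome and adjoin on the spliced transcript, where both lie near the same 7mer-m8.

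AXL, a receptor for GAS6 linked to invasive breast cancer cells, carried the highest miR-342-5p scores of the listed genes. The peaks with scores of 178 (chr19:41737132-41737203) and 146 (chr19:41743849-41743877) adjoin across a splice junction. The remaining coding peaks scored 101 (chr19:41727813-41727860), 51 (chr19:41737099-41737130), 40, 28 and 17. None of these 7 coding peaks had a 7mer or 8mer, and a 6mer was present at 3 of them. An intronic peak with a score of 14 held a 7mer-m8. The miR-342-3p peaks of AXL were low, with scores of 9, 9 and 12 in an intron, each with a 7mer or 8mer, and 17 in a coding exon without one.

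FGFR1, a receptor for fibroblast growth factors, had 1 peak of each mimic in its 3′UTR. The miR-342-5p peak (chr8:38270968-38271073) scored 62 and held a 7mer-A1 at 8 nt from the summit, and the miR-342-3p peak scored 21 without a match. ERBB2, the HER2 receptor, had a coding miR-342-3p peak with a score of 11 and no site. Its miR-342-5p peak (chr17:37884091-37884150) scored 13 with the summit on a 7mer-A1, and lay in a stretch that is 3′UTR in another transcript and coding in the canonical one. ERBB3, the HER3 receptor, had no peak.

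IRS1 and IRS2, the adaptors that carry insulin and IGF receptor signals to PI3K, took up 31 of the 91 miR-342-5p peaks (34.1%), and neither had a miR-342-3p peak on its own strand. IRS1 had 15 peaks with scores of 6 to 66, all coding, which covered 46% of its coding sequence. IRS2 had 16, with scores of 6 to 133, all coding, which covered 54.4%. In each gene 10 peaks formed an unbroken run, 1240 nt long in IRS1 (chr2:227660829-227662068) and 1401 nt long in IRS2 (chr13:110435028-110436428). The highest IRS1 peaks scored 66 (chr2:227661636-227661792, 7mer-m8) and 53 (chr2:227661253-227661367, 7mer-A1), and 5 of the 15 held a 7mer or 8mer. The highest IRS2 peaks scored 133 (chr13:110434882-110434996) and 62 (chr13:110435383-110435638) with a 6mer alone, and 73 (chr13:110435860-110436189) with a 7mer-m8, and 2 of the 16 held a 7mer or 8mer. The 2 adaptors thus had the densest series of peaks in the group. Most of these peaks had no 7mer or 8mer, as in the whole list, where 27.4% of the coding miR-342-5p peaks had one.

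**Figure D2:**
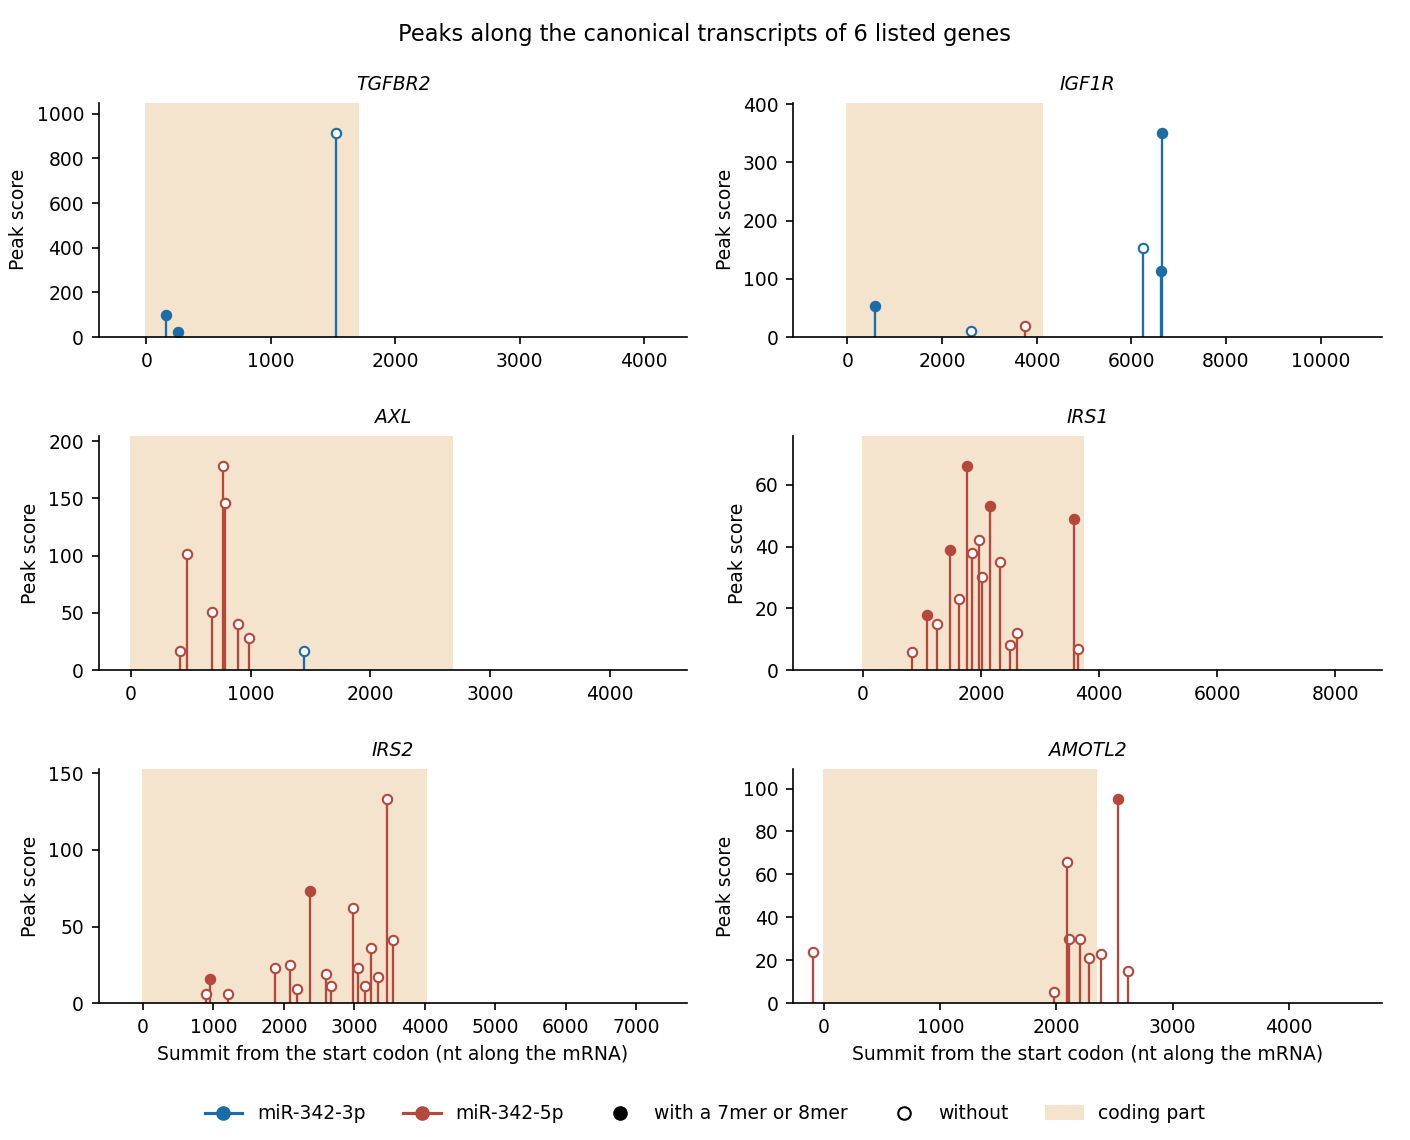
Peak score (vertical axis) against the position of the summit from the start codon along the Ensembl canonical transcript (horizontal axis, nt), for TGFBR2, IGF1R, AXL, IRS1, IRS2 and AMOTL2; the shaded band is the coding part, colours give the mimic and filled points have a 7mer or 8mer. The highest miR-342-3p peak of TGFBR2 lies in the coding part and that of IGF1R in the 3′UTR, whereas the 15 and 16 miR-342-5p peaks of IRS1 and IRS2 all lie within the coding part; peaks with a summit in an intron are not drawn.

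In the RAS and PI3K relays, 4 genes had a single miR-342-3p peak each and 2 had a single miR-342-5p peak each. MTOR, the kinase of the TORC complexes, had a coding miR-342-3p peak with a score of 58 (chr1:11188061-11188127), and RICTOR, the TORC2 scaffold, had a coding miR-342-3p peak with a score of 39. Each summit lay 5 nt from a 7mer-m8. PIK3CA, the catalytic PI3K subunit, had a coding miR-342-3p peak with a score of 49 and no site. PIK3R1, the regulatory subunit, had 3′UTR peaks of both mimics with scores of 17 and 10 and no seed match, the miR-342-3p one at a run of alternating G and U of 27 nt. RICTOR also had an intronic miR-342-5p peak with a score of 10 and an 8mer. NRAS, BRAF, MAP2K1, AKT1, AKT2 and FOXO3, which cover the RAS to MEK cascade, the AKT kinases and an AKT-regulated transcription factor, had no peak.

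Of the 7 listed Hippo and YAP genes, 5 held 17 miR-342-5p peaks and 1 held a single miR-342-3p peak. In the 19 further genes of this pathway given below, 4 had a miR-342-5p peak and 6 a miR-342-3p peak. AMOTL2, an angiomotin that can hold YAP outside the nucleus, had 9 miR-342-5p peaks with scores of 5 to 95. The highest lay in the 3′UTR (chr3:134076296-134076468), 5 nt from the 7mer-m8 printed above, and also held a miR-342-3p site within 50 nt. The next, with a score of 66 (chr3:134078125-134078230, coding, no site), adjoined a peak with a score of 30 across a splice junction. The other 6 were without a site and lay in the 3′UTR, the coding part, the 5′UTR and at an exon edge. AMOTL1, a related angiomotin, had miR-342-5p peaks with scores of 34 (3′UTR, 6mer alone), 12 (coding, 7mer-m8) and 11 (coding, 8mer), and a coding miR-342-3p peak with a score of 14.

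YAP1, the transcriptional co-activator that the pathway restrains, had coding miR-342-5p peaks with scores of 44 and 29 and no 7mer or 8mer. WWTR1, which encodes the related TAZ, had a coding miR-342-5p peak with a score of 34, 1 nt from a 7mer-A1. LATS2, a kinase that phosphorylates both, had coding miR-342-5p peaks with scores of 13 (7mer-A1) and 8 (no site). LATS1, the other kinase of this pair, and TEAD1, a DNA-binding partner of YAP, had no peak. SP1, a zinc finger transcription factor, had a 3′UTR miR-342-3p peak with a score of 19 at a run of alternating G and U of 37 nt, with a 6mer, and a coding miR-342-5p peak with a score of 10 whose summit lay on a 7mer-A1.

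The locations of the peaks were next compared between mimics. Of the 29 miR-342-3p peaks, 8 lay in a 3′UTR (27.6%, CI 14.7–45.7%), 17 in a coding exon (58.6%) and 4 in an intron, where 34.2% of the whole list lay in a 3′UTR and 55.1% in a coding exon. Of the 91 miR-342-5p peaks, 12 lay in a 3′UTR (13.2%, CI 7.71–21.6%), 67 in a coding exon (73.6%), 7 in a 5′UTR and 5 in an intron, where 17.8% and 69.6% of the whole list lay in a 3′UTR and a coding exon. The share in 3′UTRs was 14.4 percentage points higher for miR-342-3p (95% interval of the difference -1.02 to 33.3, odds ratio 2.51), which did not pass the threshold (two-sided Fisher's exact test, p = 0.088, also after adjustment over 3 tests). Counted by gene, a 3′UTR peak was present in 6 of the 16 genes bound with miR-342-3p and in 9 of the 24 bound with miR-342-5p, a difference of 0 percentage points. The 31 coding peaks of IRS1 and IRS2 weighed on the comparison by peaks, and without these genes the difference was 7.59 percentage points (exact test, p = 0.43).

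**Figure D3:**
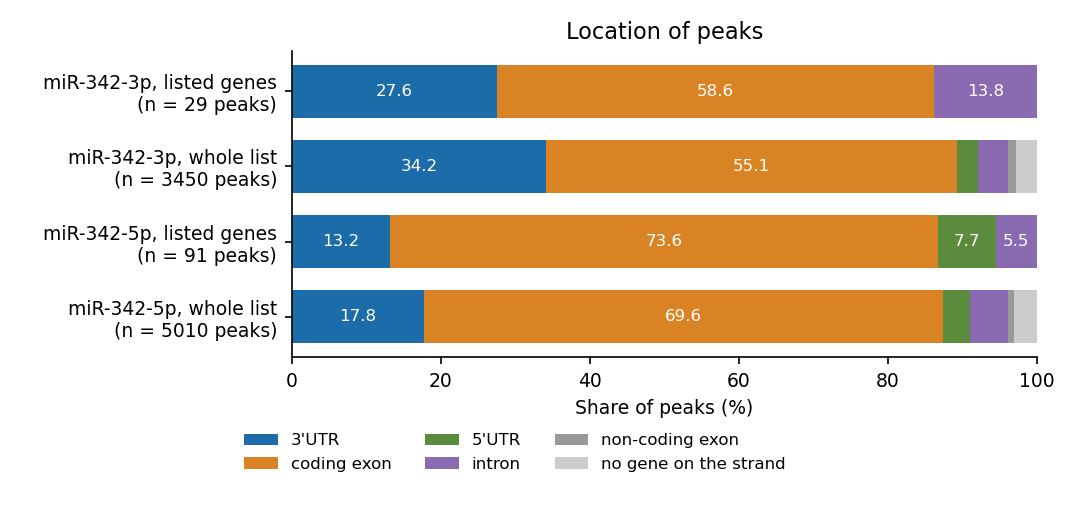
Share of peaks (horizontal axis, %) by location for the listed genes and for each whole list. Coding exons held most peaks of both mimics, 58.6% and 73.6% in the listed genes, and the 3′UTR share was 27.6% in the miR-342-3p peaks and 13.2% in the miR-342-5p peaks, beside 34.2% and 17.8% in the whole lists.

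Seed sites of the transfected strand lay close to the summits. Whole-list shares are given here and below as a description, because the genes were chosen with earlier results on these peaks known. A 7mer or 8mer of miR-342-3p was within 50 nt of the summit in 14 of 29 peaks (48.3%, CI 31.4–65.6%), where 20.6% of the whole list had one. When these windows were read on the opposite strand, 1 of 29 had one (3.45%), and the difference of 44.8 percentage points passed the threshold (exact McNemar test, two-sided, p = 9.8e-04, adjusted p = 0.0015). For miR-342-5p the count was 29 of 91 peaks (31.9%, CI 23.2–42.0%), where 33.0% of the whole list had a site. The opposite strand had one in 3 of 91 windows (3.30%), which was 28.6 percentage points lower (exact McNemar test, p = 8.7e-07, adjusted p = 2.6e-06). The miR-342-5p share with a site was near that of its whole list. Both tests compare strands within the listed genes and do not set these genes apart from others. Neighbouring peaks can share a site, as in the 3′UTR of IGF1R. With peaks at most 10 nt apart joined, 11 of 26 miR-342-3p regions had a site and 1 had one on the opposite strand (exact McNemar test, p = 0.0063, not adjusted). For miR-342-5p these counts were 26 and 1 of 53 (exact McNemar test, p = 6.0e-08, not adjusted). Reading the opposite strand exchanges each base for its complement, so a difference in base use between strands was not held fixed. The best match was an 8mer in 6 and 7 peaks, a 7mer in 8 and 22, a 6mer in 1 and 13, and none in 14 and 49 peaks, the miR-342-3p count being given first. The summit was at most 10 nt from the site in 10 of the 14 miR-342-3p peaks and in 28 of the 29 miR-342-5p peaks. A site of the other strand's seed was present at 0 and 1 of the peaks.

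**Figure D4:**
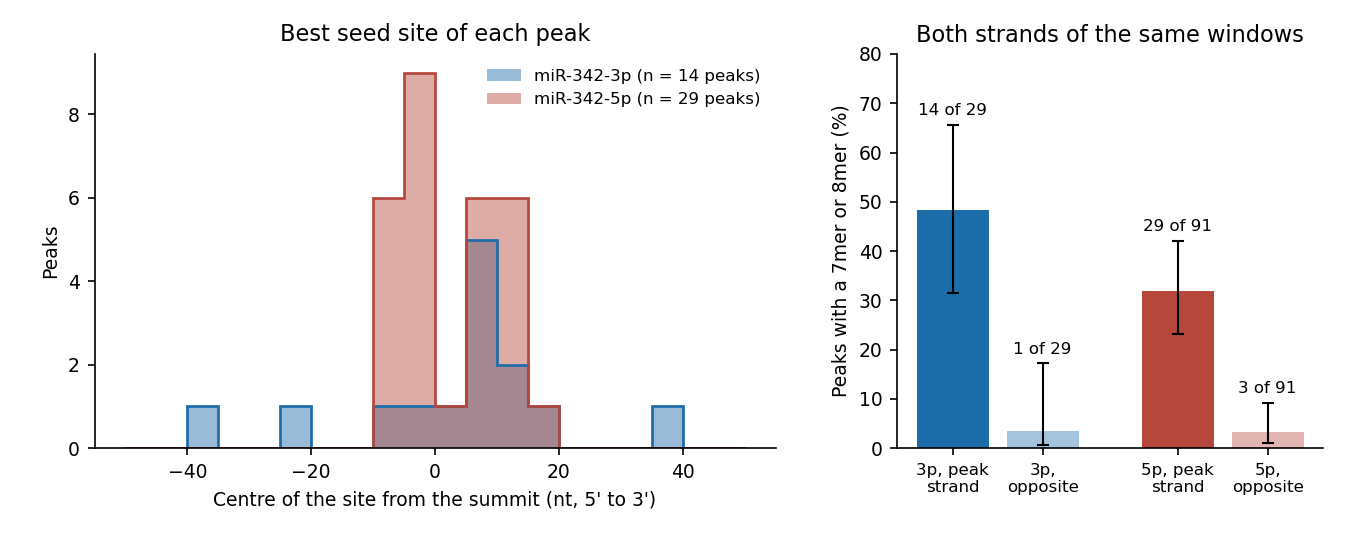
Left: number of peaks (vertical axis) by the distance from the summit to the centre of the best-matching 7mer or 8mer (horizontal axis, nt), for the 14 miR-342-3p and 29 miR-342-5p peaks with a site. Right: percentage of windows that held a site, read on the peak's own strand or on the other one, with 95% Wilson intervals; the peak strand had 14 of 29 and 29 of 91, the opposite strand 1 of 29 and 3 of 91.

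The sites were spread over locations. For miR-342-3p, 3 of 8 3′UTR peaks (37.5%) and 7 of 17 coding peaks (41.2%) had a site, where the whole list had 23.5% and 16.3%. All 4 intronic miR-342-3p peaks, in SMAD3 and AXL, had one. For miR-342-5p, 7 of 12 3′UTR peaks (58.3%) and 16 of 67 coding peaks (23.9%) had a site, where the whole list had 43.0% and 27.4%. At least 1 peak with a 7mer or 8mer was present in 8 of the 16 genes bound with miR-342-3p and 19 of the 24 bound with miR-342-5p. Such a count rises with the number of peaks in a gene, and the genes held 29 and 91 peaks. By peak, the shares with a site were 48.3% and 31.9%. The share of genes over each whole list was not computed. The genes with such a peak in the 3′UTR were IGF1R and BMPR2 for miR-342-3p, and BMPR2, SKI, EGFR, ERBB2, FGFR1 and AMOTL2 for miR-342-5p.

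The sites that the listed genes offer were also read from the sequence and set against the peaks. The 3′UTRs of the 46 genes hold 34 7mers and 8mers of miR-342-3p, of which 2 (5.88%) were under a miR-342-3p peak, beside 4.16% over all protein-coding genes. Of their 20 coding sites, 7 (35.0%) were under a peak, beside 6.87%. For miR-342-5p, 7 of 26 3′UTR sites (26.9%) and 19 of 30 coding sites (63.3%) were under a peak, beside 6.49% and 15.1%. These backgrounds include genes that may be unexpressed in the cells. The 19 coding miR-342-5p sites under a peak include 5 of the 6 in IRS1 and 4 of the 5 in IRS2. In these genes peaks covered the largest shares of coding sequence among the listed genes. The share of coding sites without IRS1 and IRS2 was not computed. Among sites in genes with a peak of the mimic, the shares were 2 of 16 (12.5%) in the 3′UTRs and 7 of 14 in the coding parts for miR-342-3p, beside 22.1% and 33.1% over all genes with a peak. The same shares for miR-342-5p were 7 of 18 (38.9%) and 19 of 27 (70.4%), beside 31.6% and 55.3%. The listed genes hold 6 coding 8mers of miR-342-5p, in SMAD4, SKIL, IRS1, IRS2 and AMOTL1, and all 6 were under a peak. The share was 22.3% over all protein-coding genes and 72.9% over all genes with a peak. The pair in SKIL lay under 1 peak. Of the 4 coding 8mers of miR-342-3p, those of SMAD2 and IGF1R were under a peak, and those of TGFBR2 and ERBB2 were not. The like shares for miR-342-3p were 18.0% and 60.5%. Of the 5 3′UTR 8mers of miR-342-3p in the listed genes, that of IGF1R was under a peak. Those of SMAD2, ID4, IRS2 and RICTOR were not, where the share was 13.5% over all protein-coding genes. ID4 and IRS2 had no miR-342-3p peak. In the listed genes with a miR-342-3p peak, 1 of 3 such 8mers was under one (33.3%, CI 6.15–79.2%), beside 51.8% over all genes with a peak. The 3′UTR 8mers of miR-342-5p in PIK3CA and AKT2 were not under one, beside 14.6% over all protein-coding genes. SMAD2, whose canonical 3′UTR is annotated at 32870 nt, holds 6 of the 34 miR-342-3p 3′UTR sites, none under a peak. Whether these cells use that full length is not shown by the lists.

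The scores of the 2 lists are given side by side, since they rest on different libraries of the mimic. The median score was 31 in the 29 miR-342-3p peaks (quartiles 16 and 76), beside 24 in the whole list, and 23 in the 91 miR-342-5p peaks (quartiles 11.5 and 37), beside 19. A score of at least 50 was reached by 10 miR-342-3p peaks (34.5%) in 6 genes, where 24.7% of the whole list did, and by 15 miR-342-5p peaks (16.5%) in 8 genes, where 17.5% did. Of the 10 miR-342-3p peaks, those of TGFBR2 (913), EGFR, MET, SMAD2 and 1 of IGF1R had no 7mer or 8mer in the genomic window. The windows also differed in base composition, with a median GC content of 48.5% in the miR-342-3p peaks and 62.4% in the miR-342-5p peaks, beside 49.5% and 59.4% in the whole lists. How far base composition moved with the scores was not tested.

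Some peaks lay at splice junctions or in runs. A summit at most 10 nt from an exon edge was seen in 5 of the 17 coding miR-342-3p peaks (29.4%), beside 23% of the coding peaks of the whole list, and in 8 of the 67 coding miR-342-5p peaks (11.9%), beside 11.2%. Along the spliced transcript, 3 pairs of miR-342-5p peaks adjoined across a junction, in MET, AXL and AMOTL2, with gaps of 14329, 6645 and 563 nt on the genome. When peaks at most 10 nt apart in a gene were joined, the 29 miR-342-3p peaks became 26 regions and the 91 miR-342-5p peaks 53, with 54 of the latter in 16 regions of several peaks. The count of miR-342-5p peaks is therefore larger than the count of separate bound stretches, most of all in IRS1 and IRS2.

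In a wider set of 118 further genes of the same pathways, a miR-342-3p peak was present in 28 (23.7%) and a miR-342-5p peak in 24 (20.3%). By list, in the same order, the counts were 5 and 5 of 29 TGF-β and BMP genes, 2 and 3 of 18 EMT genes, 7 and 6 of 26 receptor kinases and adaptors, 8 and 6 of 26 RAS and PI3K genes, and 6 and 4 of 19 Hippo and YAP genes. Their difference from the listed genes was not tested. Scores of at least 100 with the miR-342-3p mimic were reached in the BMP and activin receptor gene ACVR1 (145), the activin-binding FST (202), the hyaluronan receptor CD44 (115), the ephrin receptor EPHA2 (297 and 211) and the matricellular CCN1 (155). With the miR-342-5p mimic they were reached in fibronectin FN1 (128 and 121), CD44 (268), EPHA2 (161), CCN1 (867 and 396) and CCN2 (458), both matricellular products of YAP target genes. Of these peaks, only 1 of FN1 (121), that of CD44 (268) and that of CCN2 held a 7mer or 8mer, all for miR-342-5p.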

How the data were processed

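The authors deposited 2 peak lists whose scores (unit signal) are merged over 3 replicates per mimic, and the summit column gives a position. The submitters' processing notes name cutadapt 1.13, UMI-tools, TopHat2 2.0.13, hg19 and MACS2 2.1.1.20160309. How libraries were scaled is not given in the sources used here. Starts count from 0 in the lists and from 1 in the text. Placement used GRCh37 with GENCODE release 44 (basic transcripts) by midpoint and strand, with a 3′UTR taken first, then coding exons, 5′UTRs, exons of non-coding transcripts and introns. Seed sites were searched within 50 nt of the summit. Location was compared by Fisher's exact test and strands by an exact McNemar test, with Benjamini-Hochberg adjustment over 3 tests. Intervals are Wilson's, and Newcombe's for a difference. Every gene is accounted for. Positions are given for scores of at least 50 and for 3′UTR peaks with a site, and sequences for the exonic 8mer nearest to a summit, the 8mer across the TGFBR2 junction and the top 7mers. The genes and lists were chosen with earlier results of these data known. From the wider lists, 1 gene is not reported here and was left out of their counts. Scripts were tested on simulated data and used samtools 1.23.1, pysam 0.24.0, statsmodels 0.14.6, scipy 1.17.1, pandas 2.3.3, numpy 2.4.6 and matplotlib 3.10.9 under Python 3.11.15. Alternatives covered scores, placement, windows, site types and neighbouring peaks.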

Additional observations from a re-analysis of the deposited data

How the results depend on the processing

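Of 39 alternatives, 29 kept the result, 10 changed and 0 reversed. Where a test was run, keeping meant the same direction and the same side of the threshold, whether passed or not. The others were counts of genes and peaks, to which no test or threshold applies. Scores of at least 50 left 6 genes and 10 peaks for miR-342-3p, and 8 genes and 15 peaks for miR-342-5p. Joining peaks at most 10 nt apart, an alternative chosen after seeing the data like leaving out IRS1 and IRS2 and the spliced window, left 53 miR-342-5p regions. Location by any overlap with a 3′UTR gave a difference of 17.8 percentage points that passed the threshold (exact test, p = 0.046, before adjustment), and counting genes in place of peaks gave a difference of 0. With 8mers only, the difference between strands fell to 17.2 percentage points for miR-342-3p (exact test, p = 0.12) and 6.59 for miR-342-5p (p = 0.070). With scores of at least 50, it was 50 percentage points for miR-342-3p (5 against 0 of 10 windows, exact test, p = 0.062, the smallest p that 5 windows allow). The p-values of alternatives were not adjusted. No paired analysis was possible because the lists merge the replicates and give no value per library, so leaving out a replicate was not possible either. The low numbers of peaks, 29 and 91, limit every comparison, and peaks of a gene are not independent.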

Other observations

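Peaks on the opposite strand of a listed gene were not counted above. A miR-342-3p peak with a score of 39 (chr2:227662350-227662424, plus strand) lay opposite the coding exon of IRS1, where no gene is annotated, and held no seed site. In TGFB1, 3 miR-342-5p peaks lay opposite its introns, with scores of 12 and 85 in HNRNPUL1 and 13 in CCDC97, each with a 7mer or 8mer of miR-342-5p.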
